A study of Mus musculus with 9 samples.

Results

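Tumours of the histamine-rich line HDC-S were set against tumours of the unmodified line HDC-M, gene by gene, to see which cell functions differ beyond the few genes with the largest folds. Both lines, and the histamine-poor line HDC-A used here as a second reference, are variants of B16-F10, a mouse melanoma line. The lines were made by changing the level of histidine decarboxylase (HDC), which forms histamine from histidine, so that HDC-S tumours have a raised, HDC-M an unchanged and HDC-A a lowered capacity to make and release it. The comparison takes 6 of the 9 arrays, 3 of HDC-S and 3 of HDC-M. Each array carries RNA pooled from 2 tumours, so that the 6 tumours of a group gave 3 pools. Every pool was labelled with Cy5 and set against Cy3-labelled RNA of cultured HDC-M cells, the same on all arrays. A level is therefore log2 of tumour over cultured cells, and a difference is the mean level in HDC-S minus that in HDC-M tumours, so that 1 means 2-fold. Each group is 1 line variant, and line and histamine capacity cannot be told apart.

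Histamine acts on cells through G protein-coupled receptors, which feed into calcium and cyclic AMP signalling. B16-F10 cells are pigmented melanoma cells, and a tumour grown from them also holds blood vessels, macrophages, skin and connective tissue of the host. Much of a growing cell's RNA codes for the machinery of protein synthesis: ribosomal proteins build the ribosome, initiation factors bring it to the messenger RNA, and chaperones of the endoplasmic reticulum fold what is secreted.

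Of 41174 probes, 26871 were well above background in Cy5 on at least 3 of the 9 arrays, and 26869 of them had a difference between HDC-S and HDC-M. They stand for 13414 genes, each by its brightest probe. A further 19 genes whose brightest probe was saturated on all arrays of HDC-S or HDC-M are left out of the counts. They include 12 ribosomal protein genes and the melanocyte gene Dct. The Cy5 signal was well above background at 58.0% of probe spots on the lowest array and at 69.7% on HDC-M replicate 3, the highest. Across probes, HDC-M replicate 3 correlated with the other HDC-M arrays at r = 0.896 and 0.905, and those with each other at 0.949. Of 18 pigment cell genes tested, 17 were well above background on all 9 arrays. So were 27 of 27 macrophage, 21 of 22 endothelial and 19 of 20 skeletal muscle genes. Detection therefore gave no check of the melanocyte label. Of 21 keratinocyte genes, 12 were above background on all arrays, and their mean level ran from 0.028 to 1.24 in HDC-S and from 1.09 to 2.65 in HDC-M tumours. The mean level of 27 macrophage genes was 1.58 to 1.87 in HDC-S and 0.94 to 1.70 in HDC-M tumours, lowest on HDC-M replicate 3. Markers of host tissue thus differed between the pools, and in bulk RNA fewer cells of a type and less RNA per cell cannot be told apart. Their part in the results that follow was not tested.

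At an adjusted p under 0.05 (limma, Benjamini-Hochberg over all probes), 183 of 26869 probes passed, 0.681%, with 118 higher (0.439%) and 65 lower (0.242%) in HDC-S tumours. They belong to 139 named genes and to probes without a gene symbol. By the brightest probe, 82 genes rose (0.611% of the 13414) and 48 fell (0.358%). Most changes were small. Of the 183 probes 12 differed over 2-fold and 138 (75.4%) under 1.5-fold, with a median size of 0.46 on the log2 scale. The HDC-S and HDC-M arrays did not overlap at any of the 183. Of all probes, 22.3% had no such overlap. Probes that pass with 3 arrays a group seldom overlap, so this is no further evidence. The split between higher and lower depends on how arrays are scaled: 2 probes were higher and 3 lower after centring each array on its median, 20 and 19 after scaling between arrays, and 4 and 3 with the scanner's own log ratios. Leaving out an array also changed the count, to 13, 7 and 8 without HDC-S replicates 1, 2 and 3, to 5, 4 and 95 without HDC-M replicates 1, 2 and 3, and to 95 and 85 without HDC-A replicates 1 and 3. The probes of Lmo1, Igf2r and Galnt6 and 1 unnamed probe passed in all 9 such fits, and 29 of the 183 in none. The median was 2 of 9 fits, so most genes named here lose their call without at least 1 of the arrays.

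The list with the most members that passed was that of the ribosomal proteins. Of 83 ribosomal protein genes 71 were tested and 12 were saturated. Of the 71, 8 rose and none fell, against 0.611% and 0.358% of all genes. None passed under median centring, after scaling between arrays or with the scanner's log ratios. The same held on the first scan day alone and with the HDC-S and HDC-M arrays alone. Rpl23, Rpl37, Rpl23a, Rpl30, Rpl19, Rpl3 and Rpl8, all proteins of the large ribosomal subunit, were among those that rose. Counting those that did not pass, 63 of 71 were higher, against 52.0% of all genes. At 36 of the 71 all HDC-S arrays lay above all HDC-M arrays, against 12.2% of all genes, and at none did they lie below. The median difference was 0.13, beside 0.0060 for all genes, and in HDC-A against the same HDC-M arrays it was -0.032.

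Rpl23 had levels of 0.09, 0.04 and 0.05 in HDC-S, -0.43, -0.39 and -0.44 in HDC-M and -0.47, -0.45 and -0.50 in HDC-A tumours. All HDC-S pools were higher than the other 6, and HDC-M and HDC-A pools lay close together. Rpl23 rose by 0.48 (SE 0.05, adjusted p = 0.0118). Rpl37 stood at 0.08, 0.02 and 0.10 in HDC-S, -0.39, -0.39 and -0.37 in HDC-M and -0.46, -0.36 and -0.54 in HDC-A tumours, again with HDC-S above both other groups. It rose by 0.45 (SE 0.06, adjusted p = 0.0227). Others rose by 0.43 (Rpl23a and Rpl30), 0.42 (Rpl19), 0.40 (Rpl3) and 0.36 (Rpl8), each with HDC-S and HDC-M arrays apart. All 8 were also higher in HDC-S than in HDC-A tumours, by 0.36 to 0.53, and passed there, as did 3.65% of all genes in that direction. With the replicate number as a block 7 of the 8 passed against HDC-A, all but Rpl19 (adjusted p = 0.0549), and 2 against HDC-M, Rpl23 and Rpl23a. Over the 71 genes the mean level was -0.13, -0.19 and -0.11 on the HDC-S arrays, -0.27, -0.25 and -0.35 on the HDC-M arrays and -0.32, -0.27 and -0.37 on the HDC-A arrays.

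Other probes of the same genes bear on these values. Second probes of Rpl23 (0.44), Rpl23a (0.39) and Rpl19 (0.35) were also higher but did not pass, and that of Rpl37 differed by 0.059. Rpl17 rose at 1 probe (0.35, adjusted p = 0.0484) and its brighter probe had 0.36 (adjusted p = 0.0740). Ribosomal protein genes have many near-identical pseudogene copies, so a probe may read several of them. The direction of the list also depends on scaling. Centring each array on its median moved the median of all genes to -0.188, and relative to that the ribosomal median turned to -0.17; after scaling between arrays it was 0.25. The 7 genes named above turned to between -0.16 and -0.050 under centring, all above the median of all genes there. Ribosomal transcripts are among the brightest on the array. Among genes with a mean log2 intensity of 13 or more, a reference chosen after the values were seen, 58 ribosomal genes had a median of 0.15 and 276 other genes 0.029 relative to all genes. After centring these were -0.17 and -0.28, and after scaling 0.27 and 0.014.

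**Figure D1:**
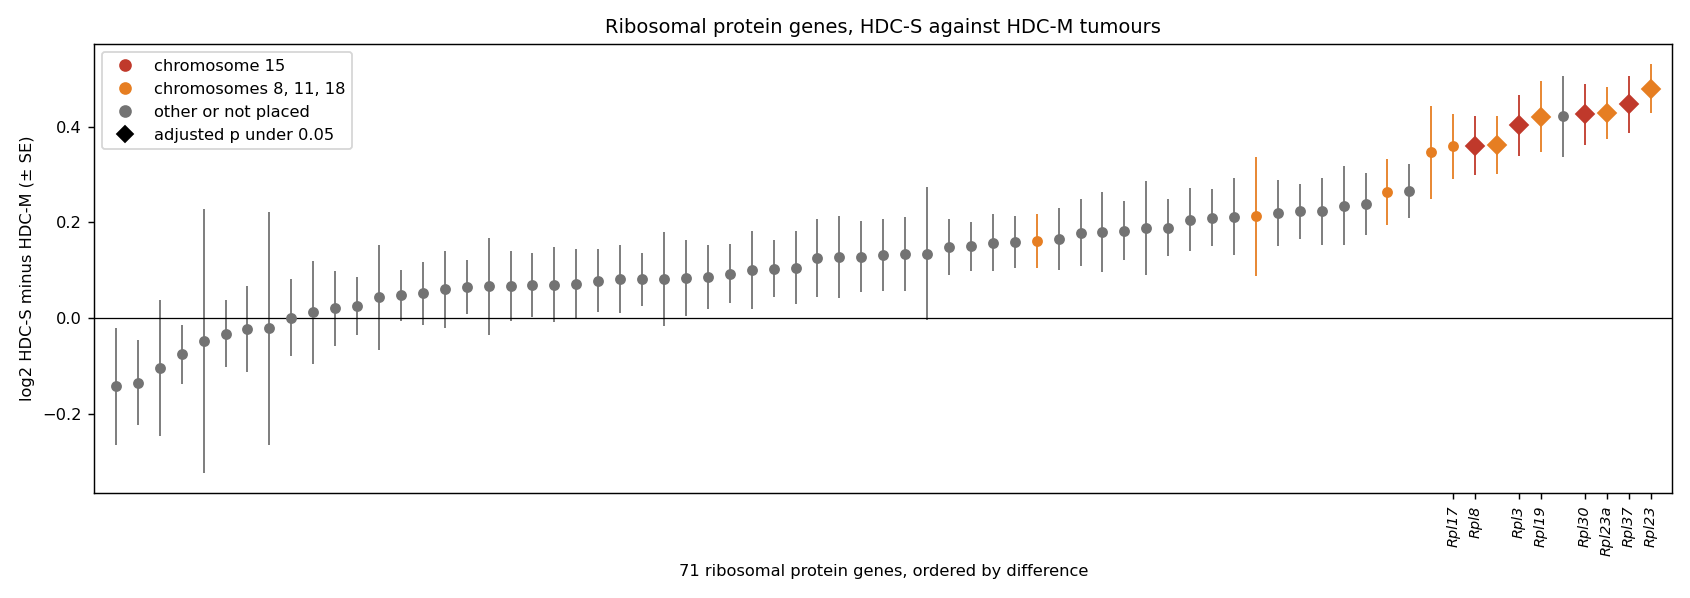
Differences of the 71 ribosomal protein genes tested between HDC-S and HDC-M tumours (log2, vertical axis; bars are the standard error of the fit), ordered by size along the horizontal axis. Diamonds mark the 8 genes that passed, names are given for genes named in the text, and colours mark the chromosome; 63 of the 71 points lie above 0.

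The promoters of 2 of the genes that rose are printed because members of the list moved together. A window here is the 300 bases from 250 before to 50 after a RefSeq gene start (build GRCm38.p6). The letters CCGGAAG, the core bound by ETS factors, were searched on both strands, and capitals mark each match. Some genes have several windows, and a gene is counted if any of them holds the letters. This was so for 22 of the 51 ribosomal genes that have a window (43.1%) and for 9.93% of all 27025 genes with one. By window the shares were 23 of 63 (36.5%) and 8.86% of all 32851. Among ribosomal genes with HDC-S above all HDC-M arrays it was 9 of 24 (37.5%). Of the genes that rose, Rpl37 and Rpl19 hold them and Rpl23 does not, while no window was matched for Rpl23a, Rpl30, Rpl3 and Rpl8. A match is a description of the sequence. The Rpl37 window is chr15:5116363-5116662 on the + strand and the Rpl19 window is chr11:98026460-98026759 on the + strand.
Rpl37: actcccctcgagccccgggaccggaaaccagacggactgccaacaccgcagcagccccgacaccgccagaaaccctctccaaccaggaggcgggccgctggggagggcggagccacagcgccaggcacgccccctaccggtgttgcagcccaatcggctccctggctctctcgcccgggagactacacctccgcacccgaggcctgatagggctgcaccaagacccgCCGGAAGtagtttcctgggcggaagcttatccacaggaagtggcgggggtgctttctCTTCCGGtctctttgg
Rpl19: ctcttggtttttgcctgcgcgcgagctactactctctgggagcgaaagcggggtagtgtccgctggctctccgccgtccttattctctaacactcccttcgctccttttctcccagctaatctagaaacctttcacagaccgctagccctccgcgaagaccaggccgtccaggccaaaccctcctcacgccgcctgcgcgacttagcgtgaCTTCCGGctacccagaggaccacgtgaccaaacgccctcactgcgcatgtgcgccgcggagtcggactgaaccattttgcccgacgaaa
The Rpl37 window holds 2 matches, 1 on each strand, and the Rpl19 window 1.

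Translation factors showed the same direction with few calls. Of 62 tested, 42 were higher, 19 with HDC-S above HDC-M on every array and 3 below, against 12.2% and 12.1% of all genes. Eif3h, Eif3d and Eif3e rose, as did 0.611% of all genes. All 3 are subunits of eIF3, the large complex that holds the small ribosomal subunit ready for initiation. Eif3h had levels of 0.06, 0.01 and 0.09 in HDC-S, -0.37, -0.39 and -0.42 in HDC-M and -0.34, -0.46 and -0.26 in HDC-A tumours. HDC-S pools were above both other groups, and the difference from HDC-M was 0.45 (SE 0.06, adjusted p = 0.0268). Eif3d rose by 0.42, and Eif3e by 0.40 at one probe and 0.45 at another, for which 2 HDC-M arrays gave values. Eif4ebp1, an inhibitor of cap-dependent initiation, differed by 0.46 (adjusted p = 0.0799), and Eif4b by 0.44 (adjusted p = 0.0738), so neither passed. The median of the list was 0.071 in HDC-S and -0.066 in HDC-A against the HDC-M arrays they share, and it turned to -0.12 relative to all genes under median centring. Pcbp2 (0.46), an RNA-binding protein that also acts in translation, Polr2f (0.48), a subunit shared by RNA polymerases, and Drosha (0.42), the nuclease that starts microRNA processing, rose as well. Of 21 RNA polymerase subunits, Polr2f alone passed.

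The genes that rose were unevenly spread over the genome. This grouping was chosen after the values were seen and carries no test. Chromosomes are those the array files give for each probe, with no build named, and 13165 of the 13414 genes have one. Chromosome 15 holds 540 of the genes tested (4.03%) and 24 of the 82 that rose (29.3%), while none of the 540 fell by its brightest probe. Tg fell there at a dimmer probe. Of the 540, 77.2% were higher in HDC-S tumours, against 50.9% of genes elsewhere. At 204 (37.8%) the HDC-S arrays were above all HDC-M arrays, against 12.2% of all genes. The median difference on chromosome 15 was 0.14, beside 0.0026 elsewhere, and in HDC-A against HDC-M tumours it was -0.035.

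The shift on chromosome 15 was seen on every HDC-S array. The median level of its genes, minus that of all genes on the array, was 0.071, 0.092 and 0.071 in HDC-S, -0.013, -0.0067 and -0.00073 in HDC-M and -0.032, -0.033 and -0.055 in HDC-A tumours. The HDC-S arrays thus lay above the other 6. With the chromosome's genes in order and cut into 10 stretches, all 10 had a median difference above 0, from 0.097 to 0.18. Relative to all genes, the median of chromosome 15 stayed between 0.091 and 0.196 in the main setting and all 20 alternatives, 0.12 under median centring and 0.091 after scaling between arrays among them. The count of genes that rose there did not, and went from 24 to 0 under median centring and to 2 after scaling.

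**Figure D2:**
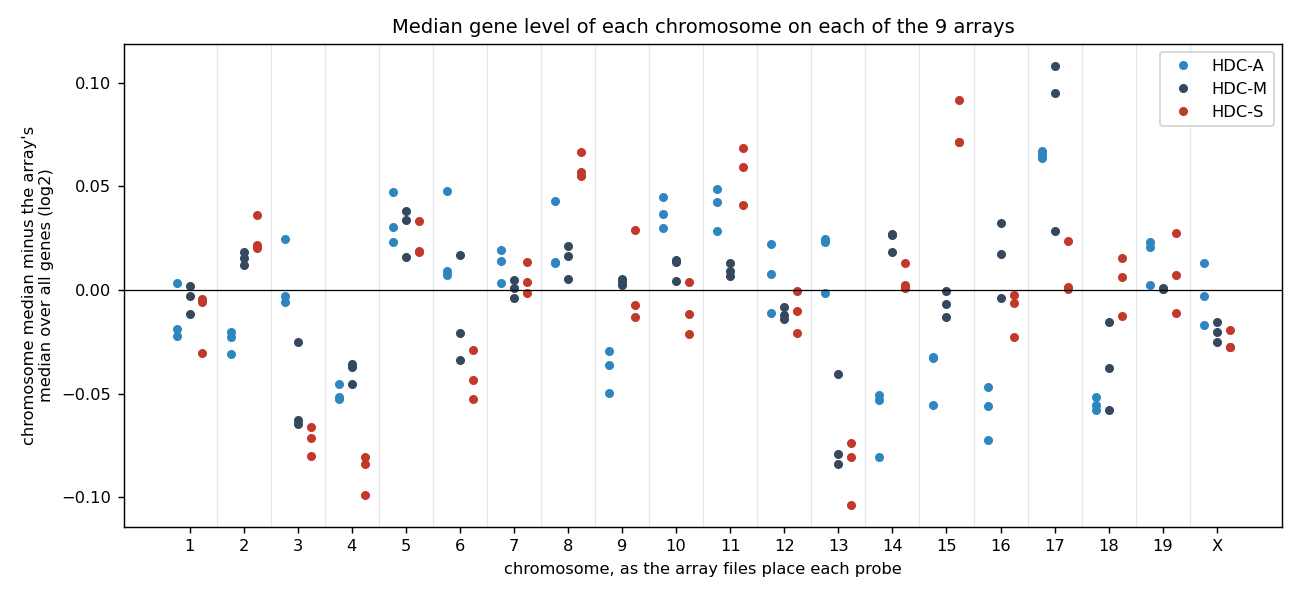
Median level of the genes of each chromosome on each of the 9 arrays, minus the array's median over all genes (log2, vertical axis), by chromosome (horizontal axis). Each dot is an array; the HDC-S dots of chromosome 15, from 0.071 to 0.092, are the highest of their group and lie above all HDC-M and HDC-A dots there.

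Other chromosomes had smaller medians. The median difference was 0.053 on chromosome 8 (676 genes, 11 rose and 3 fell), 0.058 on chromosome 11 (1148 genes, 16 rose and 2 fell) and 0.084 on chromosome 18 (300 genes, 3 rose and none fell). On chromosome 8 the first 5 of 10 stretches had medians of 0.099 to 0.17, and the others -0.020 to 0.047. Chromosomes 17 (-0.066, 7 fell and none rose) and 4 (-0.045, 4 fell and none rose) went the other way. Igf2r and Lrpprc, which fell, lie on chromosome 17. Together, chromosomes 8, 11, 15 and 18 hold 2664 genes (19.9% of those tested), 54 of the 82 that rose and 5 of the 48 that fell. These 4 were picked for their HDC-S minus HDC-M medians, and part of the shift was shared with HDC-A. HDC-A minus HDC-M medians were 0.023 on chromosome 8, 0.039 on chromosome 11 and 1.7e-06 on chromosome 18. HDC-S minus HDC-A medians were 0.034, 0.010 and 0.082 there, and 0.15 on chromosome 15. Between HDC-A and HDC-M tumours the medians farthest from 0 were those of other chromosomes, 0.12 on chromosome 13, -0.13 on chromosome 14 and -0.11 on chromosome 16.

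Position and function overlap in the protein synthesis lists. Of the ribosomal genes that rose, Rpl37, Rpl30, Rpl3 and Rpl8 lie on chromosome 15 and Rpl23, Rpl23a and Rpl19 on chromosome 11, and the 3 eIF3 subunits that rose on chromosome 15. The 13 ribosomal genes on chromosomes 8, 11, 15 and 18 had a median of 0.36. The 58 elsewhere had 0.097, with 50 higher, 24 of them with arrays apart against 12.2% of all genes, and none that rose. Of the translation factors, the 6 on chromosome 15 had a median of 0.43 and the 56 elsewhere 0.065, and none of those 56 rose. How much of the change in either list goes with position was not tested.

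Mitochondrial genes did not follow the cytosolic ribosome. Of 76 genes for subunits of the respiratory chain and ATP synthase, 25 were higher. At 16 the HDC-S arrays lay below all HDC-M arrays, against 12.1% of all genes, and at 9 above, against 12.2%. The median was -0.059, and relative to all genes it was below 0 in every setting tried (-0.34 to -0.036). The mean level over the list overlapped, at 0.23, 0.18 and 0.036 in HDC-S and 0.17, 0.23 and 0.17 in HDC-M tumours. HDC-S replicate 3 alone lay below all HDC-M arrays. Against the direction of the median 3 members rose, as did 0.611% of all genes, while none rose and 3 fell without background correction. With plain background subtraction, under centring or scaling, with the scanner's ratios, with the replicate number or scan day as a block, and whichever HDC-S or HDC-M array was left out, none passed. Atp5g2, which encodes the ring subunit of the ATP synthase, had levels of 0.18, 0.17 and 0.13 in HDC-S, -0.25, -0.26 and -0.18 in HDC-M and -0.35, -0.37 and -0.45 in HDC-A tumours. HDC-S pools were above both other groups, and the difference was 0.39 (SE 0.05, adjusted p = 0.0262). The complex I subunits Ndufb9, from 2 usable HDC-M arrays, and Ndufa13 rose by 0.37 and 0.34, and Cox14, an assembly factor of complex IV, by 0.46. Atp5g2, Ndufb9 and Cox14 lie on chromosome 15 and Ndufa13 on chromosome 8. The 4 members of the list on chromosome 15 had a median of 0.33 and the 72 elsewhere -0.062.

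Of 19 regulators of mitochondrial biogenesis tested, 5 were higher and 14 lower (median -0.067), and Ppargc1a alone fell, as did 0.358% of all genes. In HDC-A against HDC-M tumours the median was -0.088, so these genes were lower there too. At 4 of the 19 the HDC-S arrays lay below all HDC-M arrays, against 12.1% of all genes. Ppargc1a, the coactivator PGC-1alpha that drives mitochondrial gene expression, had levels of 1.58, 2.05 and 1.72 in HDC-S, 2.38, 2.91 and 2.74 in HDC-M and 2.29, 2.28 and 2.29 in HDC-A tumours. The HDC-S pools were the lowest, and Ppargc1a fell by 0.89 against HDC-M (SE 0.14, adjusted p = 0.0394). Against HDC-A it did not pass in the main fit, and with the replicate number as a block it did (-0.50, adjusted p = 0.0483). Among other mitochondrial genes, Lrpprc, which stabilises mitochondrial messenger RNA, fell by 0.53 (adjusted p = 0.0192), from 0.25, 0.29 and 0.25 in HDC-M to -0.30, -0.22 and -0.29 in HDC-S tumours. A dim probe of Lrpprc differed by 0.029. Got2, the mitochondrial aspartate aminotransferase, fell by 0.46. Rhot2, which links mitochondria to their motors, fell by 0.37 at 1 probe, while its other probe differed by 0.11 (adjusted p = 0.769). Of 76 mitochondrial ribosomal proteins 40 were higher, with a median of 0.010, and Mrpl45 on chromosome 11 rose by 0.48 at 1 probe and differed by 0.0047 at another (adjusted p = 0.993).

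Chaperones of the endoplasmic reticulum were mostly lower. Of 27 genes of the unfolded protein response and its chaperones, 6 were higher and 21 lower. At 13 the HDC-S arrays lay below all HDC-M arrays and at 2 above, against 12.1% and 12.2% of all genes. Canx and Dnajc3 fell, as did 0.358% of all genes. Canx, calnexin, a membrane lectin that holds new glycoproteins, had levels of -0.18, -0.20 and -0.26 in HDC-S, 0.06, 0.15 and 0.13 in HDC-M and 0.36, 0.42 and 0.36 in HDC-A tumours. The 3 groups did not overlap, with HDC-S lowest and HDC-A highest. Canx fell by 0.33 against HDC-M (SE 0.05, adjusted p = 0.0404) and by 0.59 against HDC-A tumours (adjusted p = 0.0023), where 3.12% of all genes passed as lower. HDC-A did not pass against HDC-M (0.26, adjusted p = 0.052). Dnajc3, a co-chaperone of BiP that also inhibits the kinase PERK, fell by 0.37, and Hsp90b1 differed by -0.32 (adjusted p = 0.315). Fkbp11 went the other way without passing (0.47), and Sil1, a nucleotide exchange factor of BiP, rose by 0.47. The median of the list was -0.12, and relative to all genes it was -0.40 under median centring and turned to 0.12 after scaling between arrays. Neither Canx nor Dnajc3 passed against HDC-M with the replicate number or scan day as a block, or when any 1 HDC-S or HDC-M array was left out, and their other probes (-0.42 to -0.23) did not pass.

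The amino acid response, in which ATF4 raises genes for transport and tRNA charging, was mixed. Of 28 genes 16 were higher, 8 with arrays apart against 12.2% of all genes, and Trib3 rose. Trib3, a pseudokinase induced by ATF4, had levels of -3.30, -2.90 and -3.29 in HDC-S, -3.80, -3.93 and -3.70 in HDC-M and -4.15, -3.91 and -3.94 in HDC-A tumours. All were far below the cultured cells, and HDC-S was highest, by 0.65 over HDC-M (SE 0.12, adjusted p = 0.049) and by 0.84 over HDC-A. Its other probe differed by 0.34 from HDC-M (adjusted p = 0.185). Chac1, another ATF4 target, was higher by 0.67 and the transporter Slc7a5 lower by -0.51, and neither passed. The median was 0.036 in HDC-S and -0.24 in HDC-A tumours, both against the HDC-M arrays, and relative to all genes it was 0.030, with 15 of 28 above them. It turned to -0.15 under median centring and -0.014 without HDC-M replicate 2, and after scaling between arrays it was 0.40, with 25 of 28 above all genes.

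**Figure D3:**
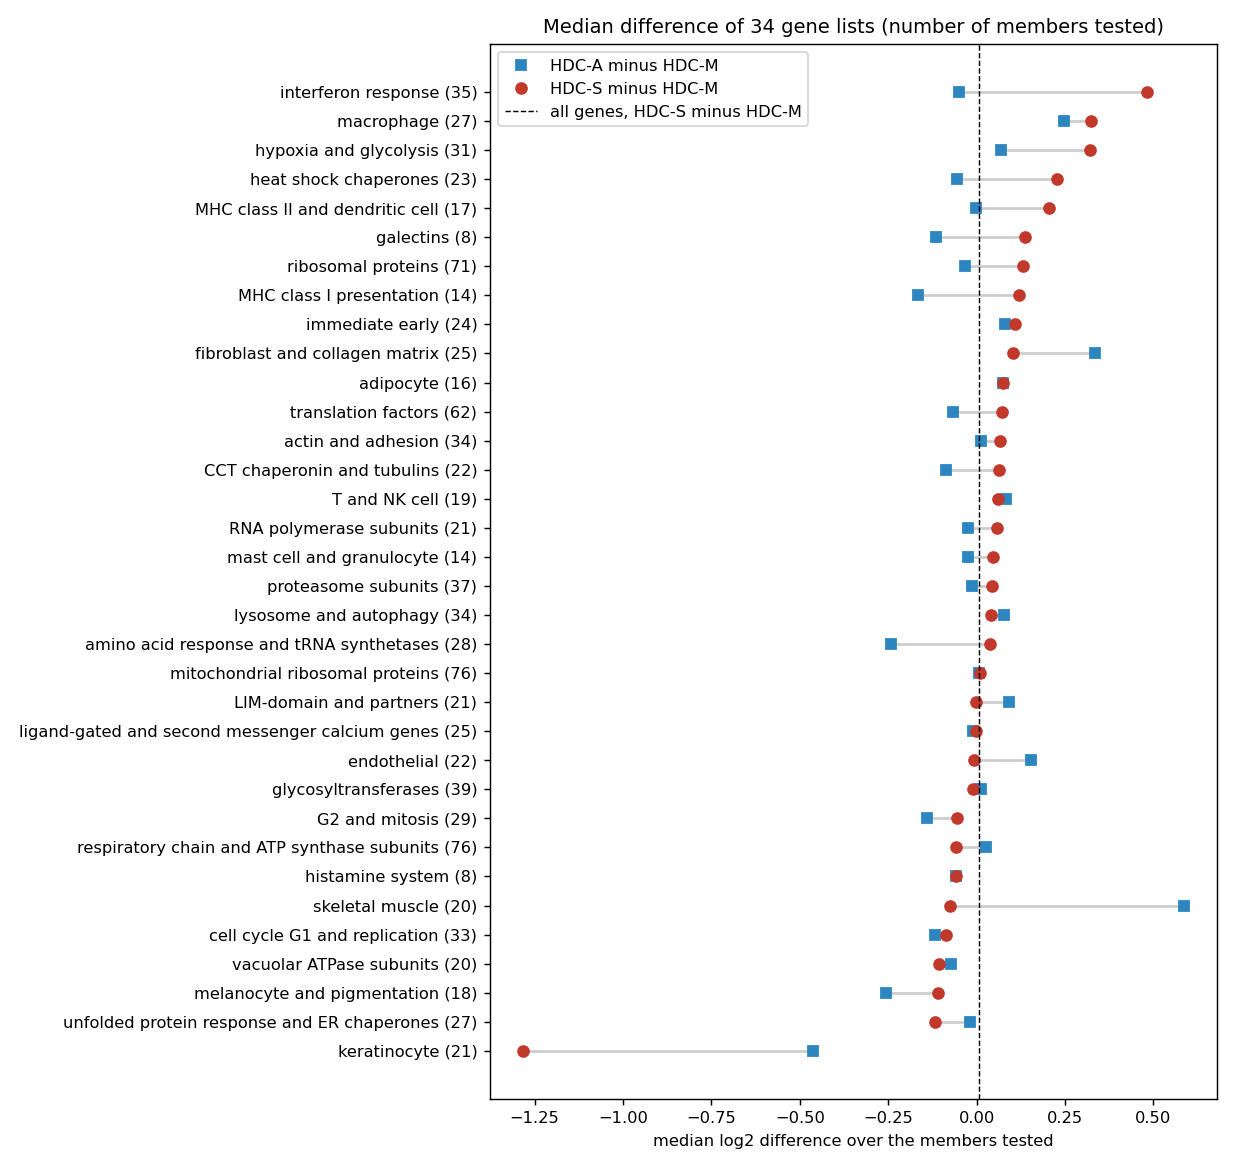
Median log2 difference from HDC-M tumours of 34 gene lists, in HDC-S (circles) and HDC-A (squares), which share the HDC-M arrays. The dashed line is the median of all genes, 0.0060, and the lists run from keratinocyte (-1.28) to interferon response (0.48) in HDC-S tumours.

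Some lists were higher or lower as a group while none of their members passed. All 35 interferon response genes were higher in HDC-S tumours (median 0.48), 11 with arrays apart, against 12.2% of all genes, and none passed. Of 31 hypoxia and glycolysis genes 29 were higher (median 0.32), 14 with arrays apart and none lower with arrays apart, and no member passed by its brightest probe. In HDC-A against HDC-M tumours the medians were -0.050 and 0.069, but the HDC-A pools were spread out. The mean interferon level was 1.43, 1.42 and 1.54 in HDC-S and 0.17, 1.30 and 1.53 in HDC-A tumours. No interferon gene passed between these lines. The mean hypoxia level was 1.04, 1.20 and 0.78 in HDC-S, 0.58, 0.57 and 0.76 in HDC-M and 0.56, 1.04 and 0.73 in HDC-A tumours. Of the hypoxia genes 4 passed as higher in HDC-S than in HDC-A, against 3.65% of all genes. Relative to all genes the HDC-S medians of both lists were above 0 in every setting, from 0.20 to 0.63 for interferon and from 0.074 to 0.53 for hypoxia genes. Macrophage genes had a median of 0.32. Without HDC-M replicate 3 it was 0.033 relative to all genes, against 0.32 with all arrays, and that of the interferon genes 0.21.

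Single members show where the pools differ. Dhx58, an RNA sensor induced by interferon, had levels of 1.93, 1.80 and 1.82 in HDC-S and 0.76, 1.26 and 0.61 in HDC-M tumours. The HDC-S pools were close together and all above the HDC-M pools, which were more spread out. The difference was 0.98 (SE 0.36, adjusted p = 0.256). Zbp1 (0.90) and Rsad2 (0.71), both induced by interferon, had the same order and did not pass. Among hypoxia genes, Adm (1.21), a vasodilator peptide, Ndrg1 (0.83), Slc16a3 (0.73), the lactate exporter MCT4, and Aldoc (0.70), a glycolytic aldolase, had the largest differences and did not pass. Ldha, which makes lactate, was saturated at its brightest probe. At a dimmer probe it had levels of 2.17, 2.27 and 2.16 in HDC-S, 1.79, 1.81 and 1.86 in HDC-M and 2.02, 2.06 and 2.10 in HDC-A tumours. HDC-M pools were lowest and HDC-A pools in between, and Ldha rose by 0.38 against HDC-M (adjusted p = 0.0319), a difference that turned to -0.12 under median centring and -0.19 after scaling.

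Promoter windows of 3 members of these lists are printed to show the letters known for each pathway. Hypoxia-inducible factors bind ACGTG, which was searched on both strands. CACGTG, a palindrome around it, counts as a match on each strand, and is also the E-box bound by MITF and MYC. ACGTG occurred in a window of 20 of 28 hypoxia genes (71.4%), of 7 of the 13 with arrays apart (53.8%) and of 21.8% of all 27025 genes. By window the shares were 22 of 38 (57.9%) and 19.6% of all 32851. The interferon response element was searched on both strands as GAAA, any 2 bases (NN) and GAAA, and was found in 17 of 27 interferon genes (63.0%), 5 of the 8 with arrays apart (62.5%) and 3.99% of all genes. By window the shares were 18 of 34 (52.9%) and 3.44%. Adm has a window without ACGTG, and no window was matched for Ndrg1 and Dhx58. The windows are chr7:46845554-46845853 (+ strand) for Ldha, chr11:120948817-120949116 (+ strand) for Slc16a3 and chr12:26456403-26456702 (- strand) for Rsad2, from RefSeq on GRCm38.p6, with matches in capitals.
Ldha: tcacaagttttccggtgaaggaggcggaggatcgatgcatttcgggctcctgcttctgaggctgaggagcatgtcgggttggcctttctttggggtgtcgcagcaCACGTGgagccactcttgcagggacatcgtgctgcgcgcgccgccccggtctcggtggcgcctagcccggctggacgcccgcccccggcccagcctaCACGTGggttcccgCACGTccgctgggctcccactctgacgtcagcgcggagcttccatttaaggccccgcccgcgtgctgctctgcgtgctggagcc
Slc16a3: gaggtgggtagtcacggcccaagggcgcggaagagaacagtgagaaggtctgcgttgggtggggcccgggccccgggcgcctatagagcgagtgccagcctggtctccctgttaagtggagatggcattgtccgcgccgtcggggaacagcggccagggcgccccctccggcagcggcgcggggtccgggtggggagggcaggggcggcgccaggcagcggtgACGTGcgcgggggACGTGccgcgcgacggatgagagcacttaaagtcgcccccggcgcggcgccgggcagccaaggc
Rsad2: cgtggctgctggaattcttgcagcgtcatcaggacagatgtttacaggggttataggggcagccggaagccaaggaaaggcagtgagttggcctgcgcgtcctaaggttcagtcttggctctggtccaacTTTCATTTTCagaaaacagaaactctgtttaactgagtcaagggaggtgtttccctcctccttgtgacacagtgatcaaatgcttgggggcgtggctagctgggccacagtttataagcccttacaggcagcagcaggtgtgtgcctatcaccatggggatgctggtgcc
The Ldha window holds 5 matches, the Slc16a3 window 2 that lie close together, and the Rsad2 window 1.

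Heat shock chaperones were higher at 18 of 23 genes (median 0.23), 9 with arrays apart against 12.2% of all genes, and none passed. Dnajb1 was at -0.55, 1.39 and -0.14 in HDC-S and -0.74, -0.78 and -0.72 in HDC-M tumours, so that HDC-S replicate 2 was far above the other pools. Relative to all genes the median of the list turned to -0.018 under median centring. Keratinocyte genes went the other way, with all 21 lower (median -1.28) and 6 with arrays apart, against 12.1% of all genes. None of them passed. Relative to all genes their median was -1.29, and it shrank to -0.62 when HDC-M replicate 1 was left out. From arrays of the first scan day it was -1.95, and 4 passed as lower. Most cell cycle genes were lower, with 9 of 33 genes of G1 and replication higher (median -0.085) and 6 of 29 of G2 and mitosis (median -0.054), and none passed. Relative to all genes the medians were -0.091 and -0.060, -0.30 and -0.35 after scaling between arrays and -0.27 and -0.25 under median centring. The G1 median was -0.058 without HDC-S replicate 2 and the G2 median -0.12 without HDC-S replicate 3. In HDC-A against HDC-M tumours the medians of the G1 and G2 lists were -0.12 and -0.14, so both were lower there too. In each of these lists 10 genes had HDC-S below HDC-M on every array, against 12.1% of all genes. The largest differences between HDC-S and HDC-M were those of Ccnd3, cyclin D3 (-0.39, adjusted p = 0.0532), and Foxm1, a transcription factor of mitotic genes (-0.42, adjusted p = 0.0635). Of 20 subunits of the vacuolar ATPase, the proton pump of lysosomes and melanosomes, 5 were higher (median -0.11), none passed, and the median was below that of all genes in every setting, from -0.25 to -0.047.

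Single genes of calcium and cyclic AMP signalling changed. Prkaca, the catalytic subunit of protein kinase A and so a target of cyclic AMP, had levels of -0.08, -0.19 and -0.14 in HDC-S, 0.31, 0.35 and 0.35 in HDC-M and 0.48, 0.60 and 0.45 in HDC-A tumours. HDC-S pools were below all others. It fell by 0.47 (SE 0.06, adjusted p = 0.0207) against HDC-M and by 0.65 (adjusted p = 0.0023) against HDC-A tumours. In the list of 25 calcium genes 2 fell and none rose, against 0.358% and 0.611% of all genes. Itpr2, an IP3 receptor that releases calcium from stores, fell by 0.51 at a probe measured on all arrays and by 0.72 at another, while a dim probe differed by 0.018. Cngb1, a subunit of the cyclic nucleotide-gated channel, fell by 1.03 and Cpe, which trims peptide hormones, rose by 0.51. Both Itpr2 and Cngb1 were also lower in HDC-S than in HDC-A tumours.

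Receptors and their partners moved in both directions. Kit, the receptor of stem cell factor in melanocytes and mast cells, had levels of 1.18, 1.23 and 1.16 in HDC-S, 0.54, 0.57 and 0.28 in HDC-M and 0.86, 0.82 and 1.03 in HDC-A tumours. HDC-S was highest and HDC-M lowest, and Kit rose by 0.73 (SE 0.09, adjusted p = 0.0192). Sigirr, which dampens interleukin-1 receptor signalling, rose by 0.76 and was higher than in HDC-A tumours by 0.91. Mrap, an accessory protein of melanocortin receptors, rose by 0.76 and Gdf1, a ligand of the TGF-beta family, by 0.55. The kinase Csnk1d, casein kinase 1 delta, rose by 0.51. Efna5, an ephrin ligand, fell by 0.56, from 0.57, 0.53 and 0.54 in HDC-M to 0.04, -0.03 and -0.07 in HDC-S tumours, with HDC-A at 0.56, 0.41 and 0.46. Igf2r, which carries mannose-6-phosphate tagged enzymes to lysosomes and clears IGF2, was at 0.34, 0.33 and 0.28 in HDC-S, 1.07, 1.20 and 1.20 in HDC-M and 1.30, 1.36 and 1.15 in HDC-A tumours. HDC-S was lowest without overlap. Igf2r fell by 0.84 (adjusted p = 0.00436); the study itself reported on Igf2r and on Fbln5 (-0.81), which are therefore no independent evidence.

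The LIM-domain list holds Lmo1, a nuclear adaptor between transcription factors, and its partners. Lmo1 stood at 2.92, 2.68 and 2.40 in HDC-S, -0.19, -0.54 and -0.37 in HDC-M and 0.52, 0.31 and -0.11 in HDC-A tumours. HDC-S levels were 8.18-fold those of HDC-M (3.03 on the log2 scale, SE 0.18, adjusted p = 0.000599), the largest rise among probes that passed. Of the 21 genes in the list, Ssbp4 rose (0.55) and Ssbp3 fell by 0.48, with -0.12 at its other probe. Both encode single-stranded DNA-binding proteins that join the complex of LDB1 and LIM factors, and at these probes all 3 were also different from HDC-A tumours in the same direction. The median of the list was -0.0011, and 10 of the 21 were higher.

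Actin genes gave 3 rises and 1 fall among 34, against 0.611% and 0.358% of all genes. Enah (0.76), which extends actin filaments, Vim (0.56), the intermediate filament vimentin, and Arpc1b (0.39), a subunit of the Arp2/3 complex, rose. Vim was at 1.62, 1.85 and 1.80 in HDC-S, 1.24, 1.19 and 1.18 in HDC-M and 1.47, 1.74 and 1.52 in HDC-A tumours, where HDC-S and HDC-A overlap. Fibroblasts and macrophages also express Vim, and the fibroblast and collagen matrix list had medians of 0.10 in HDC-S and 0.33 in HDC-A tumours against HDC-M. Relative to all genes the HDC-S median of that list (0.096) turned to -0.053 without HDC-S replicate 2, -0.043 without HDC-M replicate 3, -0.045 without background correction and -0.061 after scaling. Pfn2, a profilin, fell at 1 probe, while its other probe differed by -0.26 and did not pass. Regulators of small GTPases were lower, Tiam1 by -0.50 (adjusted p = 0.0118) and Arhgap31 by -0.45 (adjusted p = 0.0207). Coro7, a coronin of the Golgi, was at -0.09, 0.10 and 0.01 in HDC-S, 0.72, 0.76 and 0.48 in HDC-M and 0.07, -0.04 and -0.03 in HDC-A tumours, so that HDC-M stood alone above both variants. It fell by 0.65 (adjusted p = 0.0223).

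Glycan and lipid enzymes followed no single direction. Of 39 glycosyltransferases 2 rose and 1 fell, against 0.611% and 0.358% of all genes, and the median was -0.012. HDC-S arrays lay above all HDC-M arrays at 6 and below at 7, against 12.2% and 12.1% of all genes. In HDC-A against HDC-M tumours 4 of them rose and 3 fell, against 1.07% and 0.939% of all genes. Gcnt1 (0.77), which branches O-glycans, and Galnt6 (0.67), which starts them, rose and Eogt, which adds GlcNAc to EGF domains, fell by 0.71. Galnt6 stood at 1.03, 0.89 and 0.98 in HDC-S, 0.34, 0.28 and 0.27 in HDC-M and 1.14, 1.11 and 1.07 in HDC-A tumours. Both variants were above HDC-M, and Galnt6 passed whichever of the 9 arrays was left out. Other probes of these genes did not pass, with 0.035 and 0.18 for Gcnt1 and 0.29 for Galnt6 (adjusted p = 0.133). Gcnt1 and Eogt also passed in HDC-A against the same HDC-M arrays, at 0.83 and -0.79, as did 2.01% of all genes. Mgat4b, which branches N-glycans, fell by 0.46. Gfus and Pmm1, which act on the way to the sugar nucleotides of fucose and mannose, rose by 0.45 and 0.50. The other probe of Pmm1 had 0.39 (adjusted p = 0.102) and did not pass. Among lipid genes, Acot1, a thioesterase of acyl-CoA, rose by 0.80. Elovl7, which lengthens fatty acids, fell by 0.76, Cyp39a1, an oxysterol hydroxylase, by 0.61, Smpd1, the acid sphingomyelinase, by 0.59 and Chpt1, which makes phosphatidylcholine, by 0.44. Of 18 pigment cell genes 3 were higher (median -0.11), against 52.0% of all genes. In HDC-A against HDC-M tumours their median was lower still, -0.26, so the direction was not particular to HDC-S. Oca2, a melanosomal membrane protein, fell by 1.02 (adjusted p = 0.0118) while Kit rose, against 0.358% and 0.611% of all genes. Sytl2, which docks granules and melanosomes, fell by 0.87 against HDC-M tumours in either variant.

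**Figure D4:**
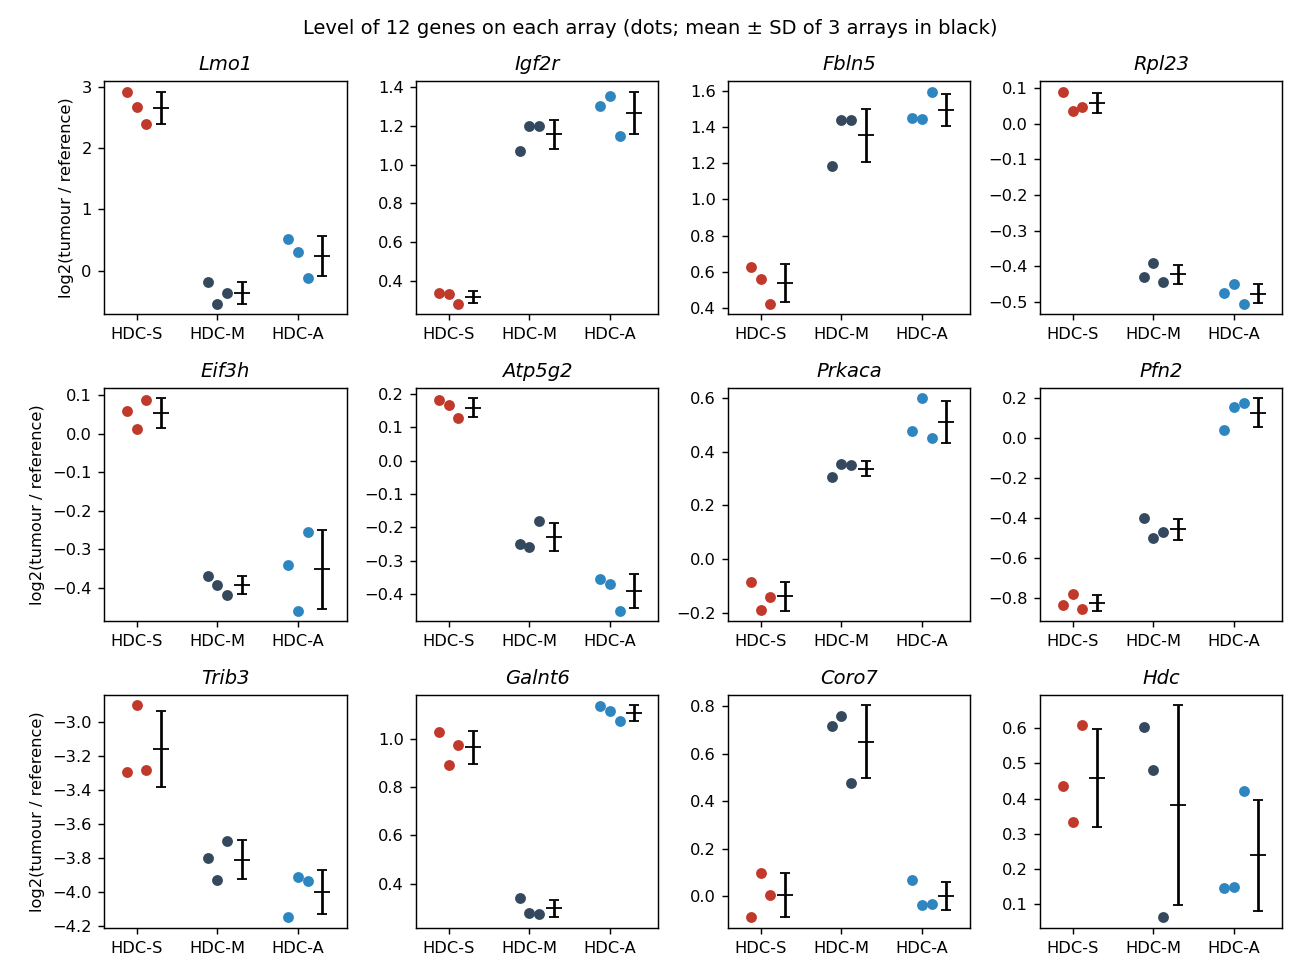
Level of 12 genes on each of the 9 arrays (log2 of tumour over reference; dots, with the mean ± SD of 3 arrays in black); each panel has its own axis. Rpl23, Eif3h, Atp5g2, Prkaca, Igf2r and Lmo1 set HDC-S apart from both other groups, Galnt6 and Coro7 set HDC-M apart, and Hdc overlaps between the groups.

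To find what differed in HDC-S tumours alone, HDC-S was also required to pass against HDC-A tumours in the same direction. This held at 126 probes (0.469% of those tested) and for 90 genes, 65 higher and 25 lower in HDC-S tumours (0.671%). Both comparisons share the HDC-S arrays. With the replicate number as a block, which takes same-numbered arrays as pairs, the 126 became 40, of which 34 were among the 126. The genes include the 8 ribosomal proteins, the 3 eIF3 subunits, Atp5g2, Ndufb9, Mrpl45, Polr2f, Pcbp2, Drosha, Lmo1, Trib3, Sigirr and Acot1 on the higher side. On the lower side they include Igf2r, Fbln5, Cngb1, Elovl7, Efna5, Prkaca, Canx, Pfn2 and Hmgn5, a nucleosome-binding protein. With the block Rpl23, Rpl23a, Mrpl45, Pcbp2, Lmo1, Sigirr, Acot1, Igf2r, Fbln5, Cngb1, Elovl7, Efna5 and Prkaca of these remained. Several genes stand by a single probe, since other probes of Drosha (0.10), Mrpl45 (0.0047), Efna5 (-0.064) and Fbln5 (-0.038) differed little from HDC-M, those of Efna5 and Fbln5 being dim. Second probes of Atp5g2 (0.31), Pcbp2 (0.40) and Polr2f (0.47) passed. Of the 65 higher genes 49 lie on chromosomes 8, 11, 15 and 18, and of the 25 lower genes 5 do. These chromosomes hold 19.9% of the genes tested and were picked for their HDC-S minus HDC-M medians. Of 78 gene lists and families looked at, 31 had a member that passed against HDC-M, and 8 had 2 or more in 1 direction. Counts of probes apart went from 2 to 106 when 1 array was left out, with 8, 4 and 3 without HDC-S replicates 1, 2 and 3, 3, 2 and 53 without HDC-M replicates 1, 2 and 3, and 50 and 47 without HDC-A replicates 1 and 3.

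Genes of the histamine system did not pass. Hdc itself had levels of 0.44, 0.33 and 0.61 in HDC-S, 0.60, 0.48 and 0.06 in HDC-M and 0.15, 0.15 and 0.42 in HDC-A tumours. The HDC-S and HDC-M arrays overlap, and the difference was 0.08 (SE 0.14), so the array gave no check of the line labels. Of the 8 members tested, Maoa (-0.33) and Aldh2 (0.18), enzymes of histamine breakdown after its methylation, had the largest differences.

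**Figure D5:**
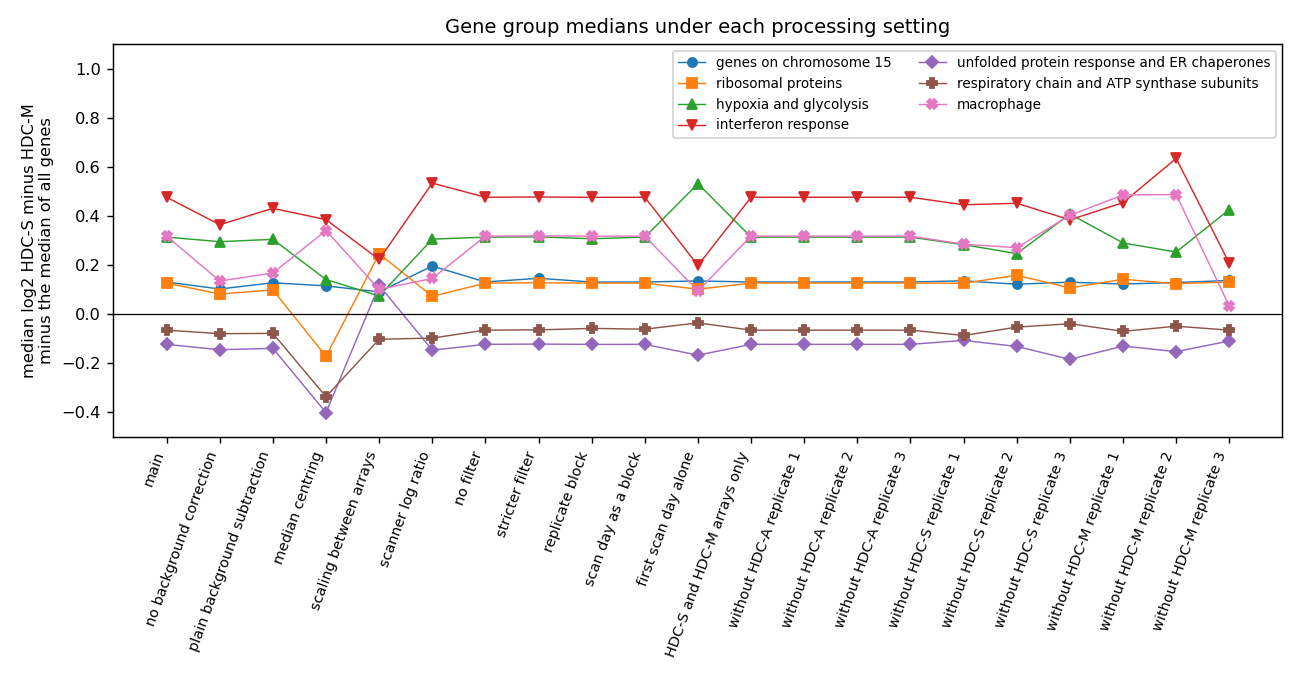
Median difference between HDC-S and HDC-M tumours, minus the median of all genes (log2, vertical axis), for chromosome 15 and 6 gene lists under the main setting and 20 alternatives (horizontal axis). Chromosome 15, hypoxia, interferon and macrophage medians are above 0 and the respiratory chain median below 0 in every setting, while ribosomal proteins turn under median centring and endoplasmic reticulum chaperones under scaling.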

How the data were processed

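RNA of 3 tumour pools per group was measured on 9 two-colour Agilent arrays. Per the file headers, the deposited intensity values came from Agilent Feature Extraction 8.5.1.1, which gives every spot a mean signal and a median background per dye. The authors' value table, used as an alternative, is the deposited log10 ratio of Cy5 over Cy3, per the file headers. Other deposited columns mark spot type, outliers, saturation and signal above background, per the file headers. The genome build of the probe annotation is not given in the sources used here.

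Mean signals were background-corrected with normexp (offset 50), each array was loess-normalised, control and outlier spots were left out, and spots of a probe were averaged (limma 3.58.1, R 4.3.3). Probes well above background in Cy5 on at least 3 of 9 arrays were kept. All 9 arrays entered 1 limma fit (lmFit and eBayes) without a block, with Benjamini-Hochberg adjustment over all probes and a threshold of 0.05. The number of arrays, 3 a group, limits the precision. The fit was tested on simulated data. Probes were named from accessions through the RefSeq table, 22064 of them directly. A gene stands by its brightest probe, and 19 genes saturated there are left out, a choice made after the values were seen.

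The members, lists and alternatives were chosen with earlier results of these data known. Lists are described by counts and medians, without a set test. Named genes are the 30 highest and 30 lowest folds among passing probes with complete, non-overlapping values, passing list members and up to 4 list members of largest size with groups apart, the 15 highest and 15 lowest probes apart from both groups, and the histamine genes, of which the text gives a selection by function; some are not reported here. Replicate numbers come from the labels, which do not say that they mark pairs; deviations of same-numbered HDC-S and HDC-A arrays correlated at 0.11, 0.55 and 0.14, so block values are given beside that comparison, and those of HDC-S and HDC-M arrays at -0.19, -0.033 and -0.13. Scan day 1 holds replicates 1 and 2 and scan day 2 replicate 3 of every group. Alternatives were other background corrections, centring, scaling, the scanner's ratios, other filters, replicate or scan day as a block, the first scan day alone, the 2 groups alone, and each array left out.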

Additional observations from a re-analysis of the deposited data

Results flagged for a closer look

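Pfn2, which encodes a profilin that binds actin monomers, and Upf3b, a factor of nonsense-mediated decay, went in opposite directions in the lines with raised and lowered histamine. Pfn2 was at -0.83, -0.78 and -0.85 in HDC-S, -0.40, -0.50 and -0.47 in HDC-M and 0.04, 0.16 and 0.18 in HDC-A tumours, and the groups did not overlap. It fell by 0.37 in HDC-S (adjusted p = 0.0398) and rose by 0.58 in HDC-A (adjusted p = 0.00598) against HDC-M tumours. The difference between the 2 effects, which is HDC-S minus HDC-A, was -0.95 (limma adjusted p = 0.00128). Upf3b was at 0.35, 0.30 and 0.48 in HDC-S, 0.72, 0.74 and 0.75 in HDC-M and 1.07, 1.05 and 1.05 in HDC-A tumours, again without overlap. It fell by 0.36 and rose by 0.33, with a difference between the effects of -0.68 (limma adjusted p = 0.00234), while its other probe differed by -0.071 between HDC-S and HDC-M. Both comparisons share the HDC-M arrays.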

How the results depend on the processing

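Of 41174 probes, the 26871 well above background on at least 3 arrays were kept for testing. The 183 passing probes became 315 without background correction, 5 under median centring, 39 after scaling, 7 with the scanner's ratios, 85 with scan day as a block, 30 on the first scan day alone and 12 with the 2 groups alone. Leaving out 1 array gave 4 to 189. The 126 probes where HDC-S stood apart became 205, 1, 17, 2, 58 and 3 in the same order up to the first scan day, and 2 to 106 without 1 array. Plain background subtraction (164) and the filters kept the count of passing probes within 1.5 times. Same-numbered HDC-S and HDC-M arrays did not deviate together (r = -0.19, -0.033 and -0.13), while HDC-S and HDC-A arrays had r = 0.11, 0.55 and 0.14. The replicate block gave 70 passing probes, 61 of them among the 183, and 40 apart. Of 81 named genes that passed, followed over 20 alternatives, 652 of 1620 values kept the call, 947 kept the direction without passing and 21 reversed. All but 1 reversed under median centring, where the median of all genes was -0.188: Rpl23 -0.050, Rpl37 -0.056, Rpl23a -0.096, Rpl30 -0.085, Rpl19 -0.11, Rpl3 -0.10, Rpl8 -0.16, Rpl17 -0.15, Eif3h -0.057, Eif3d -0.052, Eif3e -0.026, Nt5c -0.014, Naxd -0.014, Drosha -0.059, Arpc1b -0.11, Atp5g2 -0.085, Ndufb9 -0.27, Ndufa13 -0.17, Cox14 -0.031 and Ldha -0.12. Ldha also reversed after scaling (-0.19). The cause was not tested. Of 34 lists, 12 kept the sign of their median relative to all genes in all 20 alternatives.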
